A study of Mus musculus with 10 samples.

Results

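The complement component genes C1qa, C1qb, C1qc, C2, C3, C4b, Cfb, Cfp, C3ar1 and C5ar1 were followed in the spleen and lymph node of mice given CD4+ T cells transduced with oncogenic Vav1 or with GFP. Members were chosen by gene symbol, with the probe set of highest mean signal standing for each gene. Of the 10 genes listed, 9 had an annotated probe set, out of 19505 genes with one in all, and each of the 9 passed the filter on low values. C3 was not analysed here.

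The study, which concerns cancer-associated Vav1 mutations and lymphoma of T cells, measured total RNA on single-colour arrays 6 months after transduced CD4+ T cells had been put into immunocompromised mice. Vav1 is a guanine nucleotide exchange factor that acts below the T cell receptor. GFP, a fluorescent protein, was the control. The groups were GFP spleen (2 arrays), oncogenic Vav1 spleen (4 arrays), GFP lymph node (2 arrays) and, with 2 arrays as well, oncogenic Vav1 lymph node. All were labelled C57BL/10 with a wild-type genotype plus the construct, so every mouse shared the immunocompromised host and the transfer of transduced cells. The Vav1 mutation, the vector's promoter, the host's defect and the age were not given in the sources used here. The 10 arrays came from 7 animals. CTL2 gave GFP spleen replicate 1 and GFP lymph node replicate 2, ONCO2 gave oncogenic Vav1 spleen replicate 2 and lymph node replicate 1, and ONCO3 gave oncogenic Vav1 spleen replicate 3 and lymph node replicate 2.

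Complement is a set of plasma proteins that tag microbes, dying cells and immune complexes for uptake and lysis. The classical pathway starts when C1q, assembled from the chains A, B and C, binds its target and sets off the proteases C1r and C1s, which cut C4 and C2 into a C3 convertase. The alternative pathway uses factor B (Cfb) and is stabilised by properdin (Cfp), and the small fragments C3a and C5a signal through the receptors C3ar1 and C5ar1 on myeloid cells. The liver makes most plasma complement, whereas C1q comes largely from macrophages and dendritic cells, including those of spleen and lymph node, and several components are induced by interferon.

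The labels name CD4+ T cells as the cell type and spleen or lymph node as the source. Cd3e, a T cell receptor subunit, lay at percentiles 82.4 to 97.7 of all probe sets of its array over the 10 arrays, and Cd4 at 76.4 to 93.4. Cd79a, a B cell receptor subunit, lay at percentiles 95.3 to 99.5, and Csf1r, the receptor for the macrophage growth factor M-CSF, at 94.1 to 97.8. Other markers lay lower. The macrophage markers Cd163, Siglec1, Mrc1 and Adgre1 (F4/80) reached down to percentiles 50, 53.8, 55.7 and 57.6 on their lowest arrays, and the T cell marker Trat1 to 32.7. RNA of B cells and macrophages was thus measured beside that of T cells. In such mixed RNA, more cells of a type and more RNA per cell cannot be told apart.

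The C1q genes form a cluster on mouse chromosome 4 in the order C1qb, C1qc, C1qa, with no other coding gene between them in the RefSeq table, and they moved together in these data. Promoters are shown for C1qb and C1qc, whose entries the RefSeq table for build GRCm38.p6 holds. Each run gives the 250 bases before the start site on the minus strand, at chr4:136886201-136886450 for C1qb and chr4:136892915-136893164 for C1qc. Capitals mark ACTTCCT, the reverse complement of AGGAAGT, an ETS-type motif of the kind bound by the myeloid factor PU.1.
C1qb: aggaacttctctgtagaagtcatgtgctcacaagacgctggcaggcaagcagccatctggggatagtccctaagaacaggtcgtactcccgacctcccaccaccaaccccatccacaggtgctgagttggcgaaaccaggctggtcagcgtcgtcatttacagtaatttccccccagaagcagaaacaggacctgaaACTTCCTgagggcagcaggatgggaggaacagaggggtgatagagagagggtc
C1qc: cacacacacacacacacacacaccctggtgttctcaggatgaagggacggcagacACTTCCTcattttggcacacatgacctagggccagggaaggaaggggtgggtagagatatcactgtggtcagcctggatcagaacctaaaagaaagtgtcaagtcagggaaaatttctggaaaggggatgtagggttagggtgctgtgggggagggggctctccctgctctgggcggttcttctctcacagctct
The marked word started 53 bases before the start site in C1qb and 195 bases before it in C1qc. Among 32851 promoter entries of the same length, 7.69% held it on either strand. It was chosen after these promoters had been read. The interferon-gamma motif GAS (TTCNNNGAA, 7.02% of entries) and the ISRE core (GAAA, any 2 bases, GAAA, in 2.98% of entries) were searched on both strands and were absent from the 5 promoters of measured members in the table, those of C1qb, C1qc, Cfp, C3ar1 and C5ar1. The AGGAAGT word was found 2 times in C5ar1 and was not found in Cfp or C3ar1.

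In the spleen, 8 of the 9 measured members were higher with oncogenic Vav1 than with GFP, against 17.1% of the 13393 genes tested that were higher (26.8% in either direction and 9.77% lower). The changes ran from 1.83-fold for C2 to 5.66-fold for C1qa, and C5ar1 alone missed the threshold, a Benjamini-Hochberg adjusted p under 0.05 in limma's moderated test over all genes tested. For all 9 members each of the 4 oncogenic Vav1 spleen arrays lay above both GFP spleen arrays, which held for 30.3% of all genes tested (25.2% were lower in this way). The median change of the members was 1.99 on the log2 scale, beside 0 over all genes tested. Levels are log2 expression values on the RMA scale, and each change is the difference of 2 group means on that scale, given with a standard error (SE).

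**Figure D1:**
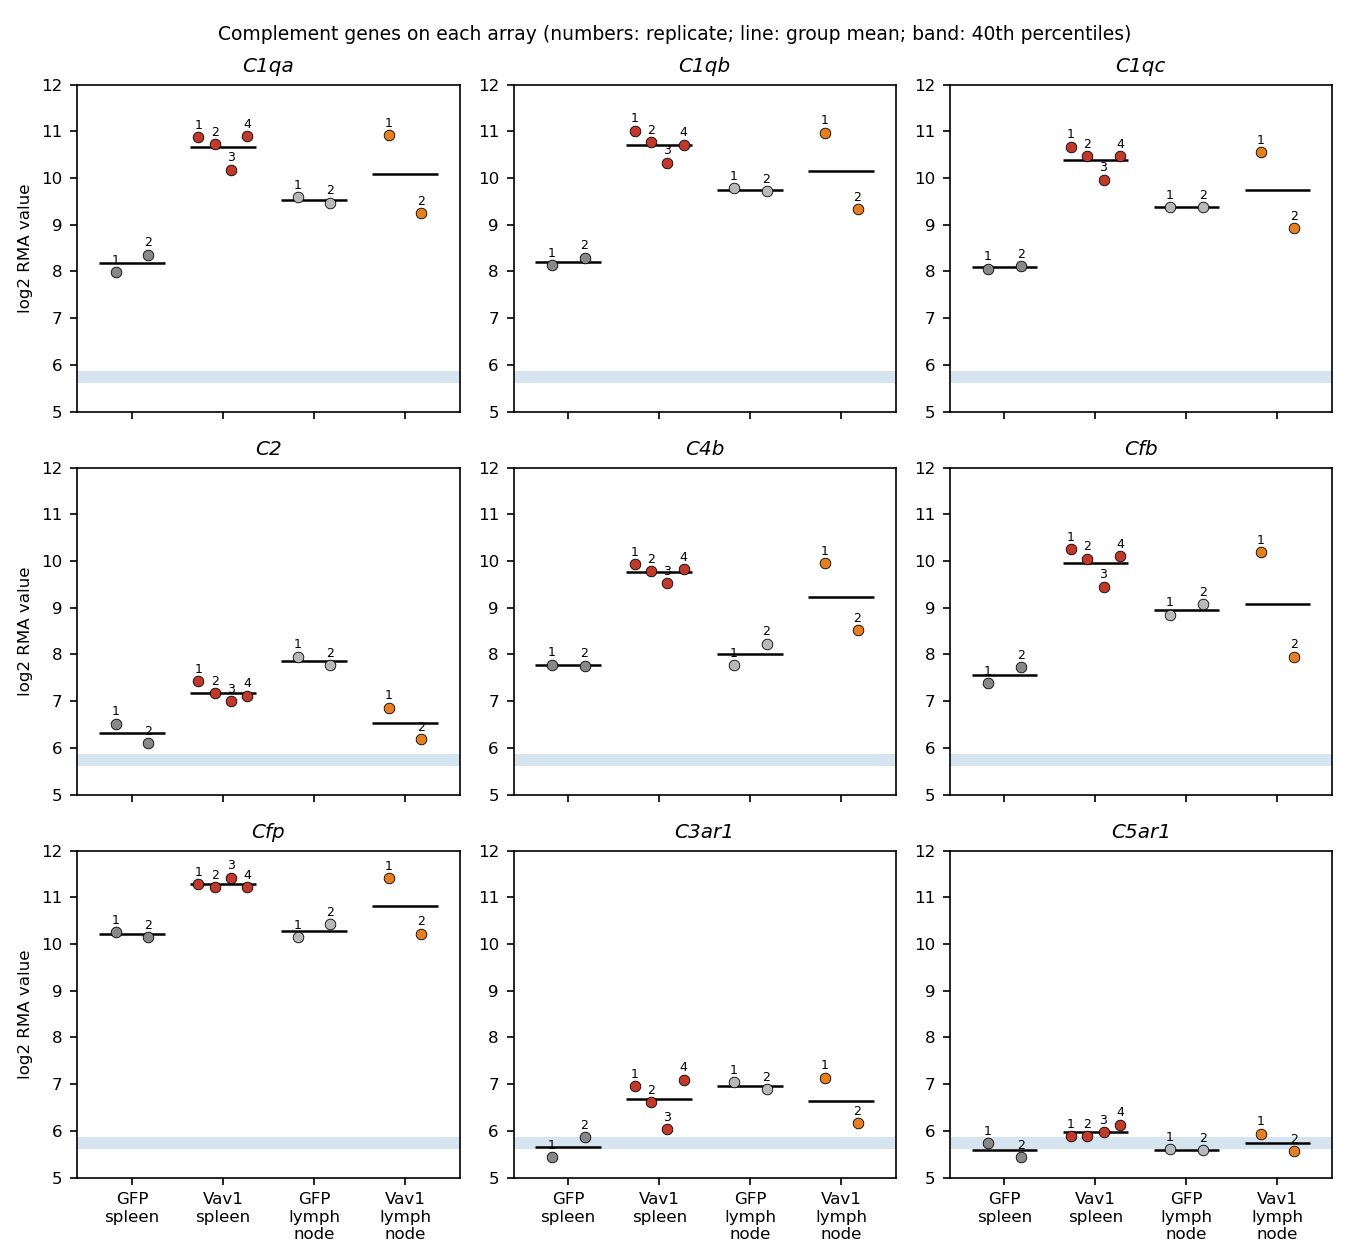
Log2 RMA value of each measured complement gene (vertical axis) on each of the 10 arrays, by construct and tissue, with replicate numbers beside the points, a line at each group mean and a band for the 40th percentiles of the arrays (5.64 to 5.84). In spleen the oncogenic Vav1 points lie above the GFP points in every panel, whereas in lymph node the points of the oncogenic Vav1 group lie apart from each other, with replicate 1 the higher.

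C1qa, which encodes the A chain, read 7.98 and 8.36 on the GFP spleen arrays and 10.87, 10.73, 10.18 and 10.90 on the oncogenic Vav1 spleen arrays. The lowest oncogenic Vav1 array, replicate 3 from animal ONCO3, was still far above the GFP arrays. Its change was 2.50 (SE 0.37, adjusted p = 0.0015), or 5.66-fold. C1qb, the B chain, read 8.13 and 8.29 with GFP and 11.01, 10.76, 10.33 and 10.71 with oncogenic Vav1, and C1qc, the C chain, 8.06 and 8.11 against 10.67, 10.46, 9.96 and 10.47. The groups did not overlap for either gene, and ONCO3 again gave the lowest of the 4. C1qb rose by 2.50 (SE 0.35, adjusted p = 0.0012) and C1qc by 2.31 (SE 0.35, adjusted p = 0.0016), which is 5.64-fold and 4.95-fold. All 3 chains of the C1q molecule were thus higher by about the same amount.

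C4b encodes complement C4, which is cleaved by C1s and deposited on the target. It read 7.78 and 7.76 with GFP and 9.93, 9.78, 9.53 and 9.83 with oncogenic Vav1 in spleen, with no overlap and little spread in either group. The change was 1.99 (SE 0.31, adjusted p = 0.0019), or 3.98-fold. C4a, its near-identical paralog, rose by 1.80 (SE 0.39, adjusted p = 0.0085), and since probes may read both genes the values of the pair are not independent. C2, the serine protease that joins C4b in the classical convertase, read 6.52 and 6.10 with GFP and 7.43, 7.17, 7.00 and 7.12 with oncogenic Vav1. Its groups did not overlap either, and its change of 0.87 (SE 0.21, adjusted p = 0.013) was the smallest among the members that passed.

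Cfb, the factor B protease of the alternative pathway and the neighbour of C2 on chromosome 17, read 7.38 and 7.73 with GFP spleen and 10.25, 10.05, 9.45 and 10.10 with oncogenic Vav1 spleen. It rose by 2.41 (SE 0.47, adjusted p = 0.0052), or 5.30-fold, close to the C1q genes in size and again lowest in ONCO3. Cfp, properdin, which myeloid cells and T cells make and which stabilises the alternative convertase, was already near the top of the arrays. It read 10.26 and 10.15 with GFP and 11.28, 11.22, 11.42 and 11.22 with oncogenic Vav1, and the change was 1.08 (SE 0.25, adjusted p = 0.012), or 2.12-fold. For Cfp alone among the members, ONCO3 was the highest of the 4 oncogenic Vav1 spleen arrays.

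C3ar1, the receptor for C3a, read 5.44 and 5.86 on the GFP spleen arrays, around the 40th percentile, and 6.96, 6.61, 6.04 and 7.10 with oncogenic Vav1. The replicate 3 array lay close to the higher GFP array. The change was 1.02 (SE 0.32, adjusted p = 0.039). C5ar1, the receptor for C5a, lay near that percentile in all groups, at 5.74 and 5.44 against 5.89, 5.89, 5.97 and 6.13, and its change of 0.38 (SE 0.16, adjusted p = 0.10) missed the threshold. It passed when the deposited values were quantile normalized again (0.53, adjusted p = 0.03) or centred on each array's median (0.49, adjusted p = 0.042).

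The spleen count rests on few control arrays, and a technical measure differed between the groups. Without GFP spleen replicate 1 Cfb (2.23, adjusted p = 0.069), Cfp (1.13, adjusted p = 0.077) and C3ar1 (0.82, adjusted p = 0.25) no longer passed, and without GFP spleen replicate 2 the same held for C2 (0.66, adjusted p = 0.12), Cfp (1.03, adjusted p = 0.082) and C3ar1 (1.23, adjusted p = 0.088), which left 5 members called in each case. C3ar1 also missed the threshold without oncogenic Vav1 spleen replicate 1, 2 or 4 (0.93, 1.05 and 0.88) or either GFP lymph node array (1.02 in both), at adjusted p from 0.059 to 0.093. Cfp missed it when replicate number entered as a fixed block (1.04, adjusted p = 0.054). The median of the intronic control probe sets, a measure of background and unspliced RNA, was 5.87 and 5.69 on the GFP spleen arrays and 5.43 to 5.55 on the oncogenic Vav1 spleen arrays. With that median as a covariate in limma, 0 of the 9 members passed in spleen and 4 had an unadjusted p under 0.05. The changes were then 1.04 for C1qa, 1.18 for C1qb, 1.01 for C1qc and 0.86 for C4b, at adjusted p from 0.05 to 0.099, and 0.51 for Cfb, 0.52 for C2, 0.36 for Cfp and -0.07 for C3ar1, at adjusted p from 0.32 to 0.91. Over all genes the calls fell from 3596 to 916 with that covariate, and construct and control level move together in spleen. The slope of the covariate was shared by all 4 groups. Its widest gap within a group lay between the oncogenic Vav1 lymph node arrays (5.27 and 5.57), which also gave unlike complement values. The spleen values with the covariate therefore draw on that gap as well. The part of the control level in the complement values was not tested.

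**Figure D2:**
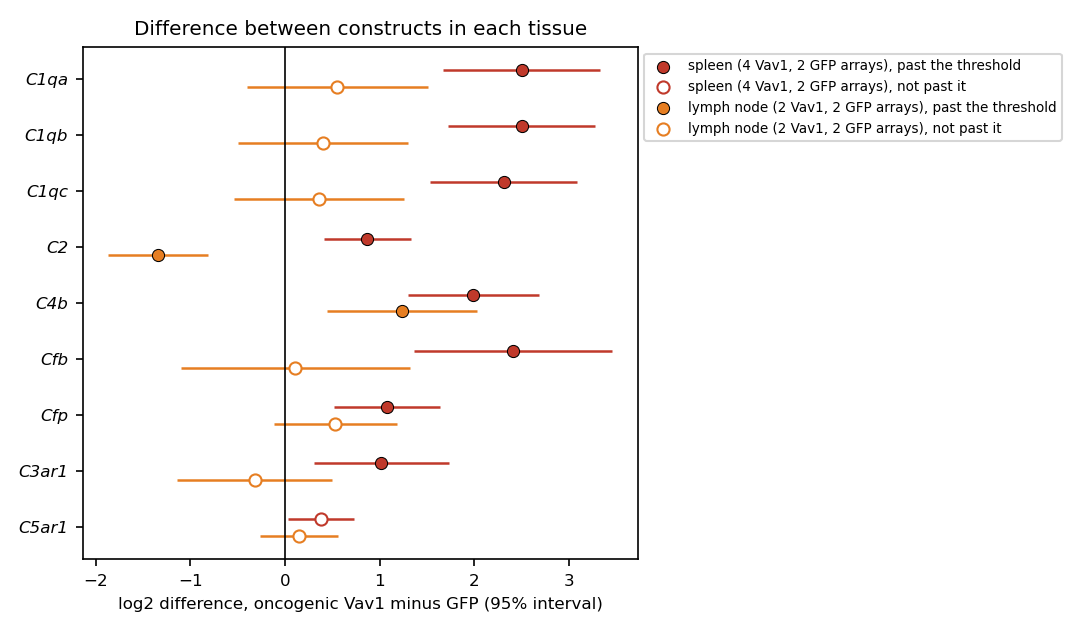
Log2 difference between oncogenic Vav1 and GFP (horizontal axis, with 95% intervals) for each member in spleen and in lymph node, filled where the adjusted p passed the threshold. The spleen intervals lie to the right of 0 for every member, with an open symbol for C5ar1, and in lymph node only C4b (1.24) and C2 (-1.34) are filled, on opposite sides of 0.

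In the lymph node, 2 of the 9 members differed between constructs, against 18.7% of the genes tested (7.87% higher and 10.8% lower). The count is near that share and does not set the members apart. C4b was higher with oncogenic Vav1 and C2 was lower, while the C1q genes, Cfb, Cfp and both receptors did not pass. The median change of the members was 0.36, beside -0.02 over all genes tested. The oncogenic Vav1 lymph node arrays gave unlike values for every member.

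C2 read 7.95 and 7.77 on the GFP lymph node arrays and 6.86 and 6.19 on the oncogenic Vav1 ones, so it was lower in both animals with no overlap, as 28.8% of genes tested were (24.2% were higher in this way, as C4b was). The change was -1.34 (SE 0.24, adjusted p = 0.0035), or 2.53-fold lower, and it was called in 22 of 23 alternative settings, with values from -1.67 to -1.0. The exception was the fit of the lymph node arrays alone (adjusted p = 0.081). In the same comparison 9 of 9 fat cell, 6 of 9 stroma and 6 of 9 T cell markers fell, while 7 of 7 erythroid and 10 of 12 neutrophil markers rose. The part of these cell types in the C2 change was not tested. C4b read 7.77 and 8.23 with GFP and 9.95 and 8.52 with oncogenic Vav1, a change of 1.24 (SE 0.36, adjusted p = 0.037), or 2.36-fold. The lower oncogenic Vav1 array lay only just above the higher GFP array. Leaving out any of the 10 arrays other than oncogenic Vav1 lymph node replicate 2 ended the C4b call, at adjusted p from 0.05 to 0.24, and its change was 0.52 (adjusted p = 0.057) without oncogenic Vav1 lymph node replicate 1. It was also lost with the replicate block (adjusted p = 0.075) and in the fit of lymph node arrays alone (adjusted p = 0.27).

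The C1q genes read 9.59 and 9.47 (C1qa), 9.78 and 9.72 (C1qb) and 9.38 and 9.38 (C1qc) on the GFP lymph node arrays. With oncogenic Vav1 they read 10.92 and 9.24, 10.97 and 9.33, and 10.55 and 8.93. Replicate 1 was thus above both GFP arrays and replicate 2 below them for each chain. The changes of the means were 0.55 for C1qa (95% interval -0.40 to 1.51), 0.40 for C1qb (-0.50 to 1.30) and 0.36 for C1qc (-0.54 to 1.26), at adjusted p of 0.43, 0.55 and 0.60. Cfb showed the widest split, with 8.85 and 9.07 for GFP and 10.19 and 7.95 for oncogenic Vav1, and a change of 0.11 (95% interval -1.10 to 1.32, adjusted p = 0.92). Cfp read 10.15 and 10.42 against 11.41 and 10.22 (change 0.53, adjusted p = 0.25), so that its replicate 2 lay within the GFP range. C3ar1 read 7.05 and 6.89 against 7.14 and 6.16 (change -0.32, adjusted p = 0.61), and C5ar1 5.61 and 5.59 against 5.94 and 5.56 (change 0.15, adjusted p = 0.64). The groups overlapped for each of these 7 genes.

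**Figure D3:**
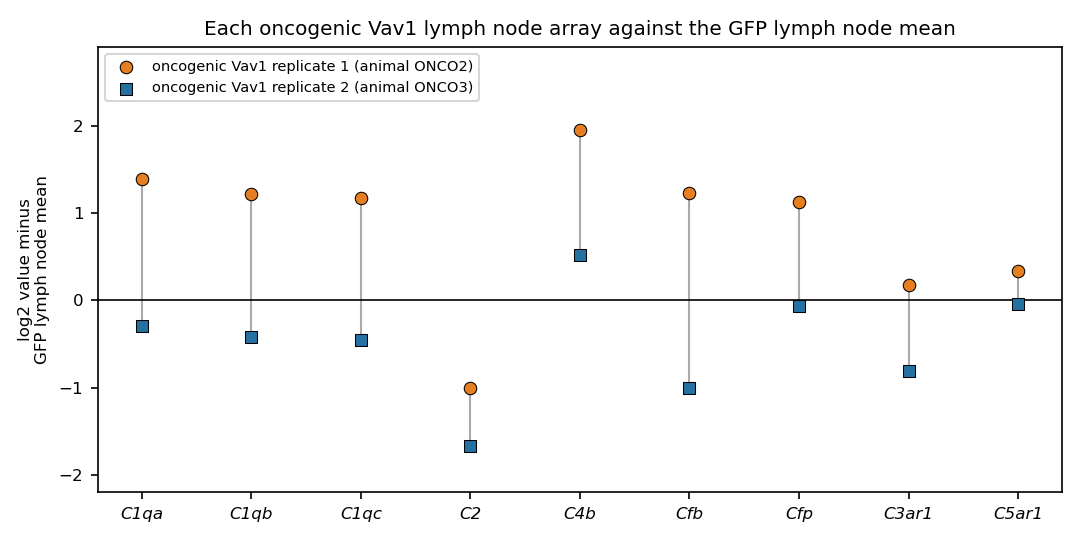
Each oncogenic Vav1 lymph node array minus the mean of the GFP lymph node arrays (vertical axis, log2) for every member, with a line joining replicate 1 (animal ONCO2) and replicate 2 (animal ONCO3). Replicate 1 lies above replicate 2 for all 9 members, and only C2 lies below 0 on both arrays while only C4b lies above 0 on both.

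Between these arrays, replicate 1 (ONCO2) exceeded replicate 2 (ONCO3) by 2.24 for Cfb (4.74-fold), 1.68 for C1qa (3.20-fold), 1.64 for C1qb, 1.62 for C1qc, 1.43 for C4b and 1.19 for Cfp. The gap was 0.97 for C3ar1, 0.67 for C2 and 0.38 for C5ar1. The median gap over all genes tested, in either direction, was 0.33, and the GFP lymph node arrays differed by 0.46 at most among the members. Replicate 2 also stood apart in its other cells' markers. The mean of 7 erythroid markers was 11.04 there and 8.61 on replicate 1, beside 5.81 and 5.98 with GFP, and the mean of 9 T cell markers was 7.74 there, 8.76 on replicate 1 and 9.50 and 9.54 with GFP. The part of these markers in the complement values was not tested.

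Without oncogenic Vav1 lymph node replicate 2 the count of members called in lymph node was 7, with C1qa (1.39, adjusted p = 0.0011), C1qb (1.22, adjusted p = 0.00074), C1qc (1.17, adjusted p = 0.0013), Cfb (1.23, adjusted p = 0.0039), Cfp (1.13, adjusted p = 6.6e-05) and C4b higher and C2 lower. Without replicate 1 Cfb was lower (-1.01, adjusted p = 0.0088) and C2 remained called. The lone array left is assumed to vary like the other groups in such a fit. For the C1q genes and Cfb the lymph node result therefore turned on which animal was used.

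The change in lymph node was set against that in spleen with an interaction term in limma, with the animal as a random block. C2 and C1qb passed, both with a lower change in lymph node, against 7.11% of the genes tested that were lower in this way (0.933% higher, 8.04% in either direction). For C2 the difference was -2.23 (SE 0.33, adjusted p = 0.0025), since it rose in spleen and fell in lymph node, and it was called in 22 of 22 alternatives, between -2.50 and -1.81. For C1qb the difference was -2.11 (SE 0.57, adjusted p = 0.048). That call was lost in 11 of 22 alternatives, among them the replicate block (-2.27, adjusted p = 0.054), the intronic control covariate (-0.70, adjusted p = 0.24) and leaving out either GFP spleen array, either GFP lymph node array or oncogenic Vav1 spleen replicate 1, 3 or 4 (-2.30 to -2.0, adjusted p from 0.057 to 0.19).

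C1qa (-1.96, adjusted p = 0.076), C1qc (-1.97, adjusted p = 0.062) and Cfb (-2.31, adjusted p = 0.095) had differences of like size and missed the threshold. C3ar1 gave -1.38 (adjusted p = 0.13), C4b -0.76 (95% interval -1.86 to 0.35), Cfp -0.54 (-1.41 to 0.33) and C5ar1 -0.24 (-0.80 to 0.31). Without oncogenic Vav1 lymph node replicate 1 the differences were -2.74 for C1qa, -2.71 for C1qc and -3.38 for Cfb. Without replicate 2 they were -1.12 for C1qa, -1.15 for C1qc and -1.20 for Cfb, beside -1.28 for C1qb and -1.85 for C2. C4b (-0.05) and Cfp (0.05) then differed little between the tissues. Each of these fits left 1 array in the group, and calls over all genes rose in both.

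Without the oncogene, lymph node and spleen differed at 3 of the 9 members, all higher in GFP lymph node, against 11.6% of the genes tested that were higher (4.41% were lower and 16% differed in either direction). C2 was 2.96-fold higher (1.57, SE 0.25, adjusted p = 0.0017), C1qb 2.91-fold (1.54, SE 0.43, adjusted p = 0.034) and C3ar1 was higher by 1.31 (SE 0.39, adjusted p = 0.044), a size that is uncertain because its GFP spleen level (5.65) lay near background. C1qa (1.36, adjusted p = 0.069), C1qc (1.30, adjusted p = 0.065) and Cfb (1.39, adjusted p = 0.13) had similar differences but did not pass. For these 6 genes the tissues did not overlap, as for 34.2% of genes tested that were higher and 33% that were lower. C4b (0.21, 95% interval -0.62 to 1.05), Cfp (0.08, -0.58 to 0.73) and C5ar1 (0.02, -0.40 to 0.44) had the smallest differences, at adjusted p from 0.75 to 0.96. In CTL2, the animal with both tissues, lymph node exceeded spleen by 1.25 for C2, 1.5 for C1qa, 1.59 for C1qb, 1.32 for C1qc, 1.69 for Cfb and 1.44 for C3ar1.

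The C2 tissue difference was called in 22 of 22 alternatives, from 1.05 to 1.76. Those of C1qb and C3ar1 were lost without either GFP spleen array, either GFP lymph node array or oncogenic Vav1 spleen replicate 4, and C1qb also without oncogenic Vav1 spleen replicate 3 and C3ar1 also without replicate 1 (C1qb 1.46 to 1.63, adjusted p from 0.055 to 0.18, and C3ar1 1.11 to 1.54, adjusted p from 0.052 to 0.24). Without either oncogenic Vav1 lymph node array C1qa (1.37), C1qc (1.30) and Cfb (1.42) also passed, at differences close to those in the full fit. Calls over all genes rose in these fits as well. With the intronic control covariate the differences of C1qb and C3ar1 were -0.07 and 0.02, those of C1qa, C1qc and Cfb were -0.42, -0.33 and -0.89 (adjusted p from 0.056 to 0.46), and that of C4b was -1.12 (adjusted p = 0.022). Of the members higher in GFP lymph node, C2 alone then passed in that direction (1.05, adjusted p = 0.032). The GFP lymph node arrays held the highest means of the 9 fat cell markers (10.91 and 10.95, against 5.90 and 6.33 in GFP spleen) and of the 9 stroma markers (9.56 and 9.58, against 8.08 and 8.18). The part of fat and stroma in these differences was not tested.

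With oncogenic Vav1, limma called 0 of the 9 members between the tissues, and 1 had an unadjusted p under 0.05. Across all genes 0.0373% were called, or 5 of 13393, so few genes of any kind passed here. For C2 the lymph node arrays lay below all spleen arrays, as for 8.03% of genes tested (7.33% lay above). The differences, lymph node minus spleen, were negative for all 9 members, from -0.92 for Cfb to -0.06 for C3ar1. The animals differed. In ONCO2 the tissues were within 0.53 of each other for every member, whereas in ONCO3 lymph node was lower by 1.5 for Cfb, 1.2 for Cfp, 1.01 for C4b, 1.03 for C1qc and 0.81 for C2. C3ar1 was the exception in ONCO3, with lymph node higher by 0.13. Without oncogenic Vav1 lymph node replicate 1, only 1 array was left in that group, and calls over all genes rose sharply. The differences of the C1q genes, C2, C4b, Cfb and Cfp then ran from -0.97 for C2 to -1.96 for Cfb.

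Ordered by group mean, each C1q gene ran from GFP spleen through the lymph node groups, GFP first, to oncogenic Vav1 spleen. C1qa had means of 8.17 ± 0.27 (SD, n = 2), 9.53 ± 0.078 (SD, n = 2), 10.08 ± 1.2 (SD, n = 2) and 10.67 ± 0.33 (SD, n = 4) in that order. The upper neighbours did not differ beyond their spread, since oncogenic Vav1 lymph node overlapped both. C4b had the same order, with 7.77 ± 0.014 and 8.00 ± 0.32 in the GFP groups, which overlapped, and 9.24 ± 1.0 and 9.77 ± 0.17 with oncogenic Vav1, which overlapped too. C2 ran another way, from GFP spleen (6.31 ± 0.30) and oncogenic Vav1 lymph node (6.52 ± 0.48), which overlapped, to oncogenic Vav1 spleen (7.18 ± 0.18) and GFP lymph node (7.86 ± 0.13) at the top. It was the sole measured member with its highest mean in GFP lymph node apart from C3ar1 (6.97 ± 0.12), whose GFP lymph node arrays lay within the range of oncogenic Vav1 spleen.

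How alike the members' patterns were was measured as the root mean square difference of the centred log2 values over the 10 arrays, as a description. Of the 36 pairs, the closest were C1qb with C1qc (0.11), C1qa with C1qb (0.12) and C1qa with C1qc (0.13), followed by Cfb with C1qc (0.19). Cfb was far from C2 (0.87), although the genes lie next to each other and encode related proteases. The least alike were C2 and C4b (1.02), whose products form the classical convertase together. C5ar1, the member that varied least, was nearest to Cfp (0.37).

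**Figure D4:**
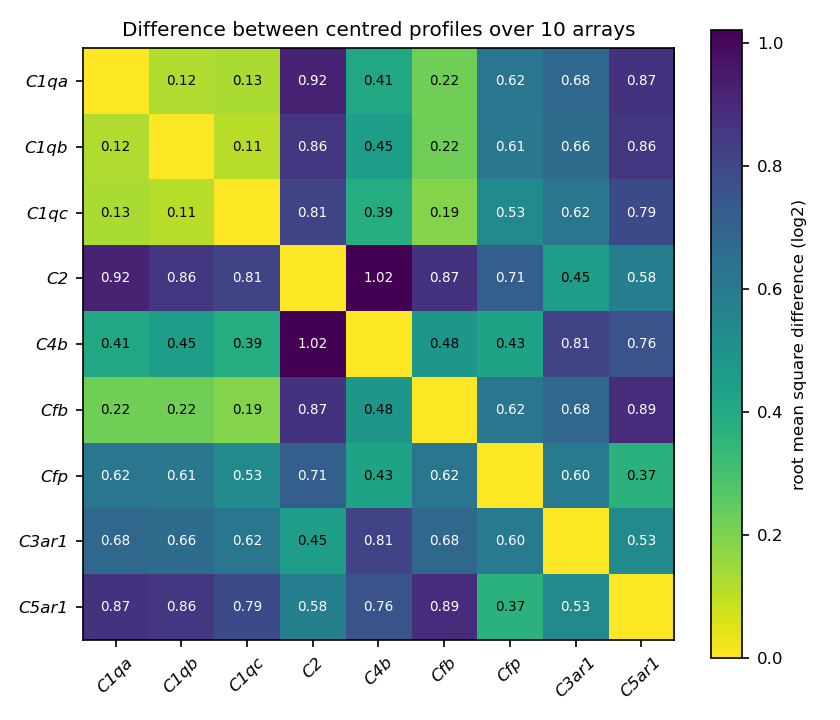
Root mean square difference between the centred log2 profiles of each pair of members over the 10 arrays, from 0 (yellow) to 1.02 (dark). The C1q genes and Cfb form a block of values from 0.11 to 0.22, and the C2 row is dark, with its lowest value at C3ar1 (0.45).

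The nearest profiles were sought among the genes tested, leaving out predicted genes, clone names, T cell receptor and immunoglobulin segments and small RNAs. The 3 most like C1qa were C1qb, C1qc and Kcne4, a potassium channel subunit (0.19), against a median of 1.05 over the genes searched. Kcne4 was also the third for C1qb (0.14), and Anxa4, an annexin, was next to C1qc (0.13) and nearest to Cfb (0.15), ahead of Plau, the urokinase protease (0.20). The genes nearest to C4b were Elane (0.13), Lilr4b (0.15) and Ctsg (0.16), of which Elane and Ctsg encode neutrophil granule proteases. Nearest to Cfp were Itgb2, the common beta chain of the complement receptors CR3 and CR4 (0.12), Gbp3, an interferon-induced GTPase (0.13), and Casp1 (0.13). C2 was nearest to Selenom (0.14), Pfkfb3 (0.15) and Npc2 (0.17), a lysosomal cholesterol carrier. Those of C3ar1 were Flrt3, Plod1 and Slc35f5, all at 0.19, and those of C5ar1, at 0.07 to 0.09, were Tbc1d22a, Ints3 and Edem1.

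Of 45 other complement genes listed, 43 had a probe set and 30 were tested. In spleen 10 rose, 4 fell and 16 did not pass with oncogenic Vav1, against 17.1% of all genes tested that rose and 9.77% that fell. Their median change was 0.33, beside 0 over all genes tested. Of 10 tested genes for proteases and recognition molecules of the classical and lectin pathways, 5 rose, among them C1ra (1.47, SE 0.27, adjusted p = 0.0042), C1s1 (1.52, SE 0.31, adjusted p = 0.0067) and C1s2 (1.05, SE 0.22), which encode the C1r and C1s proteases that ride on C1q. C1s1 read 8.15 and 8.21 with GFP and 10.04, 9.71, 9.27 and 9.79 with oncogenic Vav1, a clear separation. Serping1, the C1 inhibitor that shuts off C1r and C1s, rose by 1.79 (SE 0.37, adjusted p = 0.0065), from 8.81 and 8.97 to between 10.32 and 10.90. C1rb, another C1r gene, did not pass (0.72, adjusted p = 0.055).

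Among 10 tested regulators, Cd59a, which blocks the membrane attack complex, also rose (1.85, SE 0.37, adjusted p = 0.0059). Cd55 (-1.67, SE 0.27, adjusted p = 0.002) and Cd55b (-1.41, SE 0.18, adjusted p = 0.00072), which speed the decay of convertases, fell. Cr2, the receptor for C3 fragments on B cells and follicular dendritic cells, fell by 1.94 (SE 0.20, adjusted p = 0.00028), from 11.46 and 11.49 to between 9.25 and 10.04, and 7 of 8 tested B cell markers also fell. The integrin chains of CR3 and CR4 rose, with Itgam at 1.67 (SE 0.25, adjusted p = 0.0016), Itgax at 1.45 (SE 0.33, adjusted p = 0.0098) and Itgb2 at 0.88 (SE 0.26, adjusted p = 0.029). C5 itself (Hc) and the macrophage receptor gene Vsig4 lay below the filter, at 3.35 to 4.04 and 4.39 to 5.10. With the intronic control covariate 6 of the 30 genes passed in spleen, and C1ra (0.52), C1s1 (0.38), C1s2 (0.24), C4a (0.26), Serping1 (0.37), Cd55 (-0.74), Itgam (0.74), Itgax (0.30) and Itgb2 (0.22) were not among them. Without GFP spleen replicate 1 the count was 5, without C1ra (1.41), C1s1 (1.49), C1s2 (0.91), C4a (1.61), Serping1 (1.72), Itgax (1.41) and Itgb2 (1.01), and without GFP spleen replicate 2 it was 9, without Cd59a (1.67), Itgax (1.48) and Itgb2 (0.76). Itgb2 also missed the threshold without oncogenic Vav1 spleen replicate 1 (0.84), 2 (0.92) or 3 (0.86).

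In lymph node 3 of the 30 rose and 4 fell, shares near the 7.87% and 10.8% of all genes tested, so the counts do not set these genes apart. C7, a terminal component, fell by 2.70 (SE 0.18, adjusted p = 9.7e-06), from 8.63 and 8.73 to 5.81 and 6.14, and it was called in 23 of 23 alternatives. Vtn, vitronectin, fell by 1.62 (SE 0.25, adjusted p = 0.0017), Cd55 by 1.36 (SE 0.31) and Cd55b by 0.86 (SE 0.21), and 6 of 9 stroma markers and 9 of 9 fat cell markers fell in the same comparison. Those that rose were Fcna, ficolin A (2.03, adjusted p = 0.024), Itgax (1.27, adjusted p = 0.04) and C5ar2, the second C5a receptor (0.79, adjusted p = 0.028). Without GFP lymph node replicate 1 or 2, 2 of the 30 passed, and C7 and Vtn, but not Cd55 (-1.30 and -1.42), Cd55b (-0.87 and -0.84), Fcna (2.11 and 1.95), Itgax (1.26 and 1.27) or C5ar2 (0.62 and 0.95), remained. Without oncogenic Vav1 lymph node replicate 1 the count was 15. Without replicate 2 Fcna (1.12, adjusted p = 0.061) and C5ar2 (0.48, adjusted p = 0.15) missed the threshold. In the fit of lymph node arrays alone 1 of 28 genes tested passed, C7. Itgax also missed the threshold without either GFP spleen array or oncogenic Vav1 spleen replicate 2 or 4 (1.27 in each case, adjusted p from 0.058 to 0.066) and without oncogenic Vav1 lymph node replicate 1 (0.67).

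The interaction was called for 8 of the 30, with 7 lower in lymph node, against 8.04% of all genes tested (7.11% lower and 0.933% higher). C1ra differed by -2.22 (SE 0.44, adjusted p = 0.012), C1s1 by -2.10 (SE 0.51, adjusted p = 0.031) and C1s2 by -1.59 (SE 0.35, adjusted p = 0.021). That is the direction of the C1q genes and of most genes called over the whole array. C1ra read 8.89 and 8.71 in GFP lymph node and 8.67 and 7.47 with oncogenic Vav1, so replicate 2 was the lower array here as well. Without GFP lymph node replicate 1 or 2 the differences of C1ra (-2.12 and -2.32), C1s1 (-2.09 and -2.13) and C1s2 (-1.61 and -1.57) missed the threshold, and 1 and 2 of the 30 genes passed. The count was also lower without either GFP spleen array, and it was 4 and 5 without oncogenic Vav1 spleen replicate 1 and 4. Calls over all genes fell in these fits too. When either oncogenic Vav1 lymph node array was left out the count rose, as did calls over all genes. With the intronic control covariate C1ra still passed (-1.30, adjusted p = 0.024), whereas C1s1 (-0.92, adjusted p = 0.12) and C1s2 (-0.83, adjusted p = 0.073) did not. C7 (-2.30, SE 0.24, adjusted p = 0.00045) was called in 22 of 22 alternatives.

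The marker lists that moved in spleen were set beside the members. The mean of 19 interferon response genes was 8.04 and 8.4 on the GFP spleen arrays and 9.43 to 9.75 with oncogenic Vav1, where 13 of them rose and none fell, with a median change of 1.00. On the lymph node arrays that mean was 8.63 and 8.64 with GFP and 9.65 and 8.52 with oncogenic Vav1. Replicate 1 was thus the higher array, as for the C1q genes (10.82 and 9.17). Replicate 1 was also the higher for the marker means of T cells (8.76 and 7.74), B cells (9.9 and 9.33) and neutrophils (8.85 and 8.42). The same held for monocytes (8.78 and 8.44), stroma (8.29 and 7.83) and dendritic cells (6.64 and 6.37). The erythroid, fat cell and endothelium means were higher on replicate 2. The mean of 14 macrophage markers spanned less, at 8.25 and 8.32 in GFP spleen, 8.50 to 8.91 in oncogenic Vav1 spleen, 8.55 and 8.62 for the GFP lymph nodes, and 8.46 and 8.69 for those with oncogenic Vav1, where replicate 2 was the higher. In spleen 7 of the 14 rose, 2 fell and 5 did not pass.

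Of the macrophage markers in spleen, Csf1r changed by 0.68 (SE 0.20, adjusted p = 0.029) and Cd5l, a gene of tissue macrophages, by 2.03 (SE 0.15). Vcam1 (1.37) and Spic (0.79), genes of splenic red pulp macrophages, also rose, whereas Marco (-1.01) and Timd4 (-0.67) fell and Adgre1, which encodes F4/80, did not pass (0.04, adjusted p = 0.93). None of the 14 lay below the 40th percentile on any array. The mean of 12 neutrophil markers was 6.10 and 6.21 in GFP spleen and 8.74 to 8.99 in oncogenic Vav1 spleen, and 11 of the 12 rose. That of 8 monocyte markers was 8.10 and 8.13 against 8.78 to 8.89, with 3 higher and 1 lower. The part of each of these cell types and of interferon in the complement values was not tested.

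**Figure D5:**
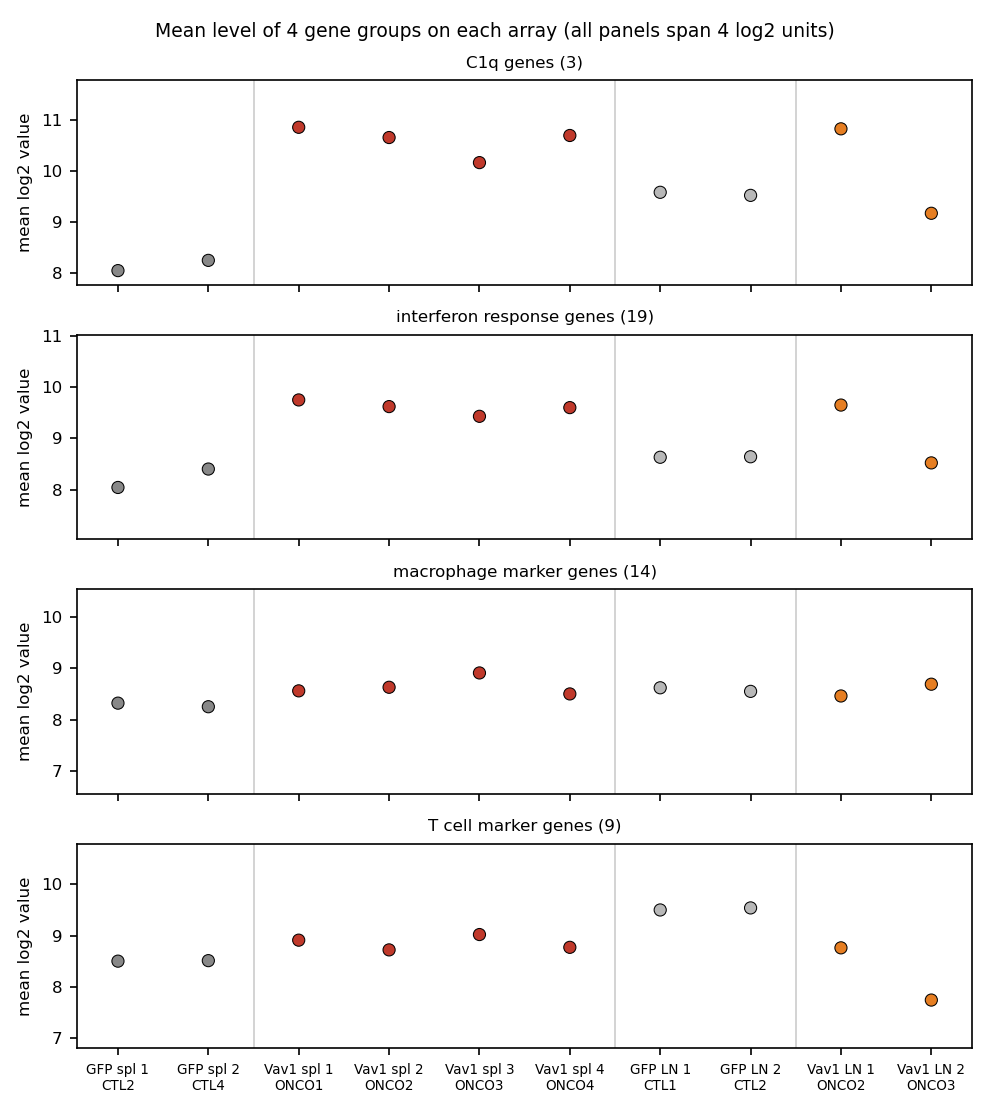
Mean log2 value (vertical axis) of the 3 C1q genes, 19 interferon response genes, 14 macrophage markers and 9 T cell markers on each of the 10 arrays, labelled by group, replicate and animal. The C1q and interferon means are high on the 4 oncogenic Vav1 spleen arrays and on oncogenic Vav1 lymph node replicate 1. The macrophage mean stays between 8.25 and 8.91, with 7 of its 14 markers higher and 2 lower with oncogenic Vav1 in spleen. The neutrophil and monocyte means, not drawn, were also higher in oncogenic Vav1 spleen than in GFP spleen.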

How the data were processed

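Total RNA from 10 samples was extracted with Trizol, labelled with biotin and hybridised to Affymetrix arrays, per the labels' protocols. The authors deposited log2 values made with RMA (R 3.6.3), per the submitters' processing notes. RMA quantile-normalizes arrays, so a shift common to most genes is removed. The genome build and annotation version were not given in the sources used here. Values ran from 2.42 to 13.9 over 29129 probe sets, of which 19572 carry 1 gene symbol. The number of arrays limits the precision.

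For each of 19505 genes the probe set with the highest mean was used. Genes entered the tests when 2 or more arrays each placed them over their 40th percentile, and 13393 did. A model of the 4 group means was fitted with limma 3.58.1 (R 4.3.3, statmod 1.5.0) and a variance trend, with 6 residual degrees of freedom. Comparisons across tissues and the interaction had the animal as a random block (correlation -0.11). P-values were adjusted by Benjamini-Hochberg over all genes tested and called under 0.05, and all tests were two-sided. The script was tested on simulated data. Samples of a group came from different animals. Equal replicate numbers were not taken as pairs, because arrays with the same number came from different animals. Between constructs the correlations of their deviations ran from -0.06 to 0.3. Between spleen and lymph node they were -0.03 with GFP, and 0.33 and 0.51 with oncogenic Vav1. Arrays of the same animal gave 0.03 (CTL2), -0.51 (ONCO2) and 0.02 (ONCO3). Deviations in a group of 2 arrays mirror each other. The CTL2 and ONCO2 values are therefore the -0.03 and 0.51 above with the sign turned, and are not separate evidence.

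Named genes were all members, up to 4 genes per list and comparison with the smallest p, a fixed set of complement genes, and the 3 nearest profiles of each member. The members and lists were chosen with earlier results of these data known. Alternatives changed the filter, normalization, variance model, array weights, blocks, threshold, probe set rule, a technical covariate and the arrays included. C3 was not analysed here.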

Additional observations from a re-analysis of the deposited data

Results flagged for a closer look

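The change with oncogenic Vav1 differed between lymph node and spleen, by the interaction term in limma, for 2 members and 4 of the other complement genes singled out by name. For C2 the lymph node change was lower than the spleen change by a difference of -2.23, and for C1qb by -2.11. For the C1 proteases the difference was -2.22 (C1ra) and -2.10 (C1s1), and for Itgam, the alpha chain of complement receptor 3, it was -1.51 (SE 0.40, adjusted p = 0.046). Cr2 went the other way at 1.87 (SE 0.32, adjusted p = 0.0057), since it read 9.41 and 9.52 in GFP lymph node and 9.29 and 9.46 with oncogenic Vav1, whereas in spleen it fell. The Cr2 call was lost without GFP lymph node replicate 1 (1.82, adjusted p = 0.05), and that of Itgam was called in 12 of 22 alternatives, from -2.08 to -0.53. Within the oncogenic Vav1 spleen group, 18 tests of named genes for a single array apart from the others flagged none. With 4 arrays such a test can find only an extreme gap, so it does not clear any array. Replicate 3 (ONCO3) was the lowest of the 4 for the C1q genes, C2, C4b, Cfb and C3ar1. It was the highest for Cfp and neither for C5ar1.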

How the results depend on the processing

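Counts of members called are given for the settings that moved them by over 1.5 times. In spleen (8 called) the intronic control covariate gave 0. In lymph node (2 called) the fit of a single tissue gave 0 (1 at an unadjusted p under 0.05 in limma), the replicate block 1 and leaving out both ONCO3 arrays 7. Between tissues in GFP (3 called) array weights and leaving out ONCO3 both gave 6, and in oncogenic Vav1 (0 called) the covariate gave 1. For the interaction (2 called) quantile normalization, no variance trend, the replicate block and the covariate each gave 1, array weights 5 and leaving out ONCO3 6. Leaving out 1 array at a time gave 5 to 8 in spleen, 1 to 7 in lymph node, 1 to 6 and 0 to 7 between tissues in GFP and in oncogenic Vav1, and 1 to 8 for the interaction. Outside the spleen comparison the highest of these counts came from fits with 1 oncogenic Vav1 lymph node array left, in which calls over all genes also rose. The replicate block ended the calls of Cfp in spleen (1.04), C4b in lymph node (1.24) and C1qb in the interaction (-2.27), and of no other member.

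Signs turned with the covariate for C3ar1 in spleen (-0.07) and, between tissues in GFP, for C1qb (-0.07), C4b (-1.12), Serping1 (-0.24) and Cd55 (0.78), and for the members not called in either fit, C1qa (-0.42), C1qc (-0.33), Cfb (-0.89), Cfp (-0.69) and C5ar1 (-0.14). They also turned for Cfb in lymph node without oncogenic Vav1 lymph node replicate 1 (-1.01, and 1.23 without replicate 2), Cd55 between tissues in oncogenic Vav1 without that array (0.56, and -0.69 without replicate 2) and Serping1 in lymph node without ONCO3 (0.51). The cause was not tested.

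Over all genes, 3596 were called in spleen, 916 with the covariate, 5852 without ONCO3, 1079 and 1845 without GFP spleen replicate 1 and 2, 2339 and 2344 without oncogenic Vav1 spleen replicate 1 and 2, and 5493 or 5521 when oncogenic Vav1 lymph node replicate 1 or replicate 2 was left out. In lymph node 2500 were called, 1264 with array weights, 469 in the single tissue 943 and 954 without GFP lymph node replicate 1 and 2, 3388 without ONCO3 and 4651 without oncogenic Vav1 lymph node replicate 1. Of the spleen calls 63.6% were higher, and 79.8% when arrays were centred on their median, which moved the median change of all genes to 0.11. Between tissues in GFP that share went from 72.5% to 84% with centring and 50.8% with the covariate. With 2 arrays in 3 of the 4 groups, small changes and those near background, as for C5ar1, could not be resolved.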
